A study of Rattus norvegicus with 9 samples.

Results

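Slc2a1, Slc16a3, Ldha and Ldhb are the genes of glucose entry and lactate exchange described here. They were picked by name, and they are 4 of the 14211 loci whose transcript level was tested in ventricles of Sprague-Dawley rats. Each gene was found under its symbol in the deposited gene tables. In a library whose table lacked the symbol, the transcripts of the same locus in the isoform table were summed. The tables of 5 of the 9 libraries carried the name Slc2a1, 5 carried Slc16a3, 1 carried Ldha and 3 carried Ldhb. The ratio of Ldha to Ldhb was also taken within each library.

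The study asks which features of the fetal heart transcriptome come back when the adult heart is overloaded with pressure, and it has 3 libraries in each of 3 groups. The fetal libraries are ventricle at embryonic day 18, numbered as litters and without surgery, with RNA isolated by Trizol. The TAC libraries are adult left ventricle after transverse aortic constriction, a narrowing of the aorta that loads the heart with pressure. The sham libraries are adult left ventricle after the same operation without the narrowing, and both adult groups had their RNA isolated with a Qiagen fibrous tissue column kit. No genetic change is given for any group. How long after surgery the hearts were taken is not stated in the labels, which also leave unsaid whether each adult library is its own animal. The p-values therefore measure the spread between libraries, which may be technical. Age, surgery (none in fetal, sham or constriction in adult), region of the ventricle and RNA isolation differed together between fetal and adult libraries and cannot be told apart.

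Glucose crosses the plasma membrane through facilitative transporters, of which GLUT1, the product of Slc2a1, serves basal uptake and is prominent in the fetal heart. Glycolysis ends in pyruvate, and lactate dehydrogenase converts pyruvate and lactate into each other as a tetramer of A and B subunits. The A subunit, from Ldha, favours lactate formation and the B subunit, from Ldhb, favours lactate oxidation and dominates in adult heart muscle. Lactate then crosses the membrane together with a proton, through MCT1 (Slc16a1) in tissues that take it up and MCT4 (Slc16a3) in tissues that release it.

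The 250 bases before the start of each gene are shown because Slc2a1, Slc16a3 and Ldha are textbook targets of the hypoxia-inducible factors. Their binding core was searched in the form ACGTG only, and other forms of it were not searched. The windows come from RefSeq on the build GRCr8, where all 4 genes matched by symbol. They read 5′ to 3′ along the gene, and capitals mark ACGTG on either strand. Slc2a1 is at chr5:138002272-138002521 on the plus strand, Slc16a3 at chr10:106712078-106712327 on the plus strand, Ldha at chr1:106507842-106508091 on the plus strand and Ldhb at chr4:177177409-177177658 on the minus strand.
Slc2a1: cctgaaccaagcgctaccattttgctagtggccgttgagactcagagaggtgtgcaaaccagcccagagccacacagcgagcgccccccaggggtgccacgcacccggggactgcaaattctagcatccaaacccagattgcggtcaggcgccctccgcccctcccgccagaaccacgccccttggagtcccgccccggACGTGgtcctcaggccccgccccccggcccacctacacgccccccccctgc
Slc16a3: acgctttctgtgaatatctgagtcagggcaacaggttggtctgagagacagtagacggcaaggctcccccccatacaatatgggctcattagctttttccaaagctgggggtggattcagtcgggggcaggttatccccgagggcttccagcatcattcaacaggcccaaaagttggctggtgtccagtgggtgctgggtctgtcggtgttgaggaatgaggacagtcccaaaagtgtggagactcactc
Ldha: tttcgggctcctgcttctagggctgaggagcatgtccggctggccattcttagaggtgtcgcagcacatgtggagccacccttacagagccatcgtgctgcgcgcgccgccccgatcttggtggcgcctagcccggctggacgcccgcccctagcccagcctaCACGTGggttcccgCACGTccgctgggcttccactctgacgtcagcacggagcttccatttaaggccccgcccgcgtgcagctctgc
Ldhb: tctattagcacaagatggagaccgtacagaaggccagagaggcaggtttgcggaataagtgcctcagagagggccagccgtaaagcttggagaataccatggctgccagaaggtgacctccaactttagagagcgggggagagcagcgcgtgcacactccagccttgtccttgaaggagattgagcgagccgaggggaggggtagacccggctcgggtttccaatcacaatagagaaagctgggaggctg
The Slc2a1 window held 1 match, 51 bases before the start. The Ldha window held 3, at 87, 86 and 73 bases before the start, of which the first pair overlaps as 1 CACGTG. The Slc16a3 and Ldhb windows held no ACGTG. Of 33469 rat promoter windows of this length, 16.6% held ACGTG on either strand and 5.59% held CACGTG, an E-box that contains ACGTG on both strands. A GC box, CCGCCC, was found 3 times each in the Slc2a1 and Ldha windows and in 30.5% of all windows. The GC content was 68.4% for Slc2a1 and 66.4% for Ldha, against 54.0% for Slc16a3, 56.4% for Ldhb and a median of 51.2% over all windows. No window held TATAAA, which 12.9% of all windows did. A match describes the letters of a window and is not evidence of a bound factor.

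The levels below are FPKM, fragments per kilobase of transcript, relative to all mapped fragments. They were rescaled so that libraries can be compared and the mean library total is 1e6. They are per length, so they can also be compared between genes. Depth was read from the confidence bounds of the deposited values, as the fragments they imply where a single transcript carried a locus. Ldhb rested on 29628 to 144151 such fragments and Ldha on 5761 to 24335. Slc2a1 rested on 200 to 589 in adult libraries and on 6565 in fetal replicate 1. In replicate 1 of each group the shortest assembled transcript was 43 nt, and in all others 63 nt, so differences are also given for number 1 and for numbers 2 and 3. Fewer cells of a type and less RNA per cell cannot be told apart in whole tissue.

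**Figure D1:**
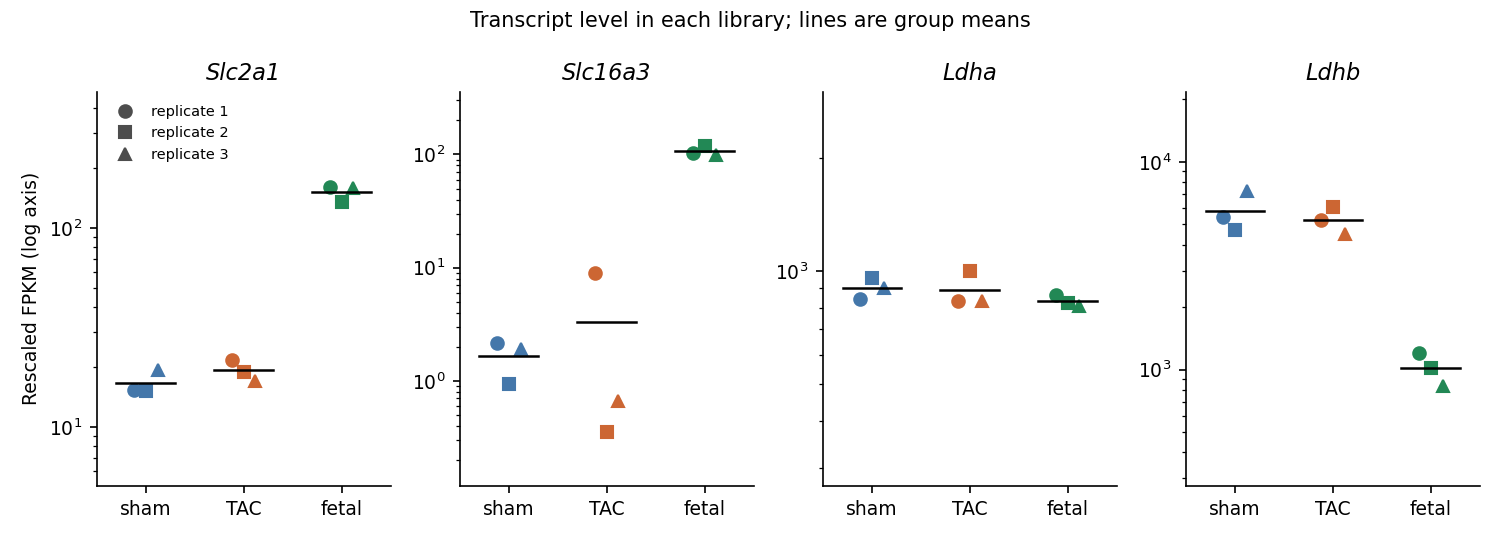
Rescaled FPKM of the 4 genes (vertical axes, each a log axis with its own range) in each of the 9 libraries, by group on the horizontal axis, with symbols for the replicate number and lines at the group means. Fetal values of Slc2a1 and Slc16a3 lie above, and those of Ldhb below, all 6 adult values. For Ldha, fetal replicate 1 lies among the adult values, and fetal replicates 2 and 3 lie below all 6.

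Slc2a1, the basal glucose transporter, was much higher in fetal than in adult ventricle. In the rn4 coordinates of the files it lies at chr5:139690801-139719021. Its level was 160.2, 135.3 and 158.4 FPKM in fetal replicates 1, 2 and 3. In sham it was 15.4, 15.2 and 19.4 FPKM, and in TAC 21.6, 19.0 and 17.1 FPKM. All 3 fetal libraries were above all 6 adult libraries, whose 2 groups overlapped. The fetal mean of 151.3 ± 13.9 FPKM (SD, n = 3) was 9.08-fold the sham mean of 16.7 ± 2.36 FPKM (SD, n = 3). On the log2(FPKM + 1) scale the fetal minus sham difference was 3.11 ± 0.15 (SE, 95% interval 2.77 to 3.46, adjusted p = 3.53e-06). It was 3.30 between the libraries numbered 1 and 3.02 on average for numbers 2 and 3. Among the 14211 loci, ranked from the highest level, Slc2a1 stood between ranks 5354 and 6688 in adult libraries and between 713 and 868 in fetal ones.

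Of the 2 reference transcripts of Slc2a1, ENSRNOT00000064452 carried the whole value in 6 libraries, and ENSRNOT00000047556 was listed at 0 in 8 libraries and carried 21.6% in TAC replicate 2. Transcripts assembled beside them carried 35.4% and 33.1% in fetal replicates 2 and 3 and none in the other libraries.

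Slc16a3, which encodes the lactate exporter MCT4, had the largest ratio between fetal and adult ventricle of the 4 genes when assembled transcripts were counted. It lies at chr10:110159680-110162569 (rn4). Fetal replicates 1, 2 and 3 had 103.6, 118.8 and 98.3 FPKM. Sham had 2.14, 0.940 and 1.90 FPKM, and TAC had 8.96, 0.356 and 0.659 FPKM. Every fetal library was above every adult library, and among the adult libraries TAC replicate 1 stood apart from the rest. The fetal mean of 106.9 ± 10.6 FPKM (SD, n = 3) was 64.5-fold the sham mean of 1.66 ± 0.634 FPKM (SD, n = 3). The log2 difference was 5.37 ± 0.66 (SE, 95% interval 3.85 to 6.89, adjusted p = 0.000313), with 5.06 for the libraries numbered 1 and 5.52 for numbers 2 and 3.

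The adult values of Slc16a3 rested on few fragments, 20, 9 and 29 in the sham libraries and 37, 2 and 7 in the TAC libraries, against 3862 in fetal replicate 1. Its rank was between 8409 and 13407 in adult libraries and between 993 and 1205 in fetal ones. The kind of transcript that carried the value also differed. In all 6 adult libraries it was the reference transcript ENSRNOT00000054939, of 1415 nt. In fetal libraries, longer transcripts that span the reference at both ends, of 2061, 2607 and 2111 nt, carried 100%, 38.2% and 80.0% of the value. The reference transcript alone was listed at 0 in fetal replicate 1, where its form was extended to 1437 nt, and at 73.4 and 19.7 FPKM in replicates 2 and 3. With reference transcripts alone the fetal minus sham difference was 2.28 (adjusted p = 0.413) and the fetal minus TAC difference 2.22 (adjusted p = 0.422), so the call rests on counting the longer assembled transcripts as Slc16a3. Its fetal minus sham difference was then smaller than that of Slc2a1 (2.90) and, in size, that of Ldhb (-2.39). The library kit does not mark the strand, and reads from an overlapping gene on the other strand cannot be told apart from those of Slc16a3. In fetal replicate 2 a separate assembled gene that overlaps the end of Slc16a3 was not counted in it.

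**Figure D2:**
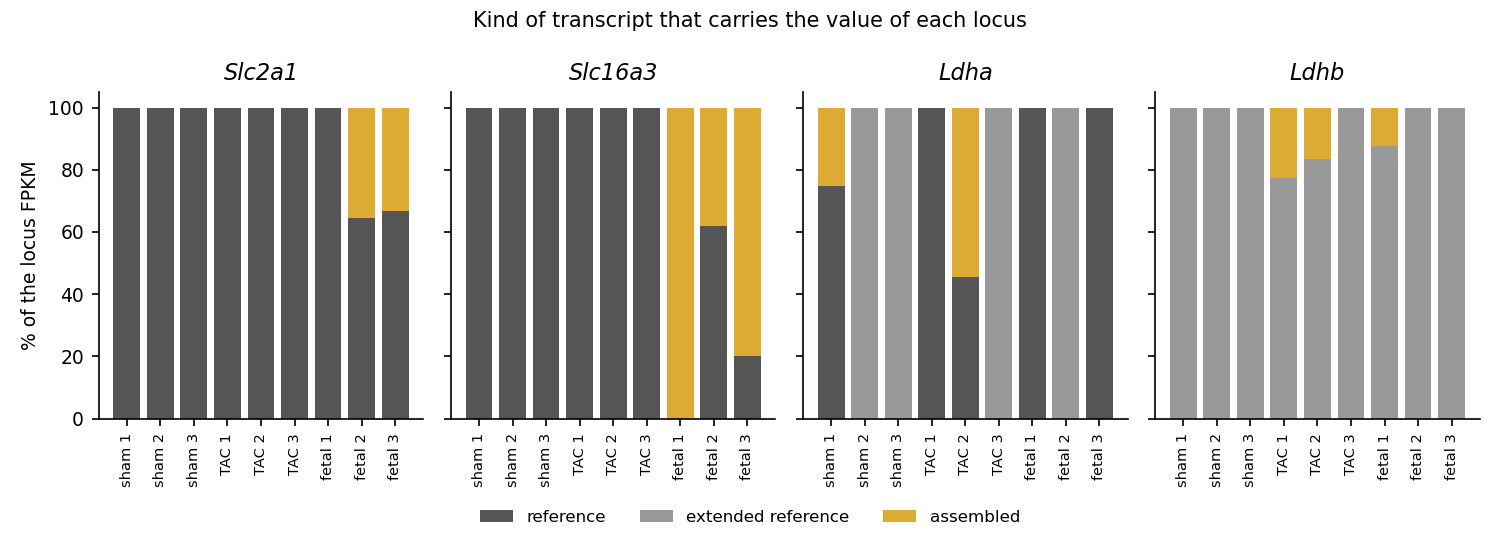
Share of each locus' FPKM (vertical axis, %) carried by reference transcripts, by reference transcripts that the assembly extended, and by newly assembled transcripts, in each of the 9 libraries (horizontal axis). For Slc16a3 the assembled share is 0 in the 6 adult libraries and 100%, 38.2% and 80.0% in the fetal ones.

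MCT4 was set beside MCT1, the other main lactate carrier of the heart. Slc16a1 was at 234.5 ± 39.0 FPKM in sham, 229.7 ± 8.01 in TAC and 212.4 ± 25.8 in fetal libraries (SD, n = 3 each), with a fetal minus sham difference of -0.14 (adjusted p = 0.506). Slc16a3 made up 0.702 ± 0.252% of the sum of both in sham, 1.42 ± 2.07% in TAC and 33.5 ± 0.517% in fetal libraries. In fetal replicates 1, 2 and 3 the reference transcript alone was listed at 0, 73.4 and 19.7 FPKM. The fetal share therefore rests on counting the assembled transcripts, and the adult shares rest on 2 to 37 fragments of Slc16a3. For glucose transporters, Slc2a1 was 3.47 ± 0.281 times the level of Slc2a3 (GLUT3) in sham and 2.61 ± 0.327 times in TAC. In fetal libraries Slc2a1 was 20.5 ± 4.65 times Slc2a3. The insulin-responsive transporter Slc2a4 was not analysed here, so this ratio is no share of all glucose transporters. These ratios are descriptions, without a test.

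Ldha, the A subunit gene, differed little between the 3 groups. It lies at chr1:97402977-97412547 (rn4). Fetal replicates 1, 2 and 3 had 863, 823 and 806 FPKM, sham had 842, 957 and 901 FPKM, and TAC had 833, 999.7 and 833 FPKM. The 3 groups overlapped, and the sham mean of 900.2 ± 57.7 FPKM was 1.08-fold the fetal mean of 831 ± 29.5 FPKM (SD, n = 3 each). The fetal minus sham difference was -0.11 ± 0.15 (SE, 95% interval -0.47 to 0.24, adjusted p = 0.580), and it changed sign to 0.038 when libraries were set to equal totals and to 0.19 with reference transcripts alone. For the libraries numbered 1 it was 0.036, and for numbers 2 and 3 it was -0.19. The interval spans ratios of 0.724 to 1.18 between fetal and sham. Assembled transcripts carried 54.4% of Ldha in TAC replicate 2 and 25.1% in sham replicate 1. Reads of Ldha may be shared with near-identical copies elsewhere in the genome, and the labels do not state how the authors' counting split them.

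Ldhb, the B subunit gene, was lower in fetal than in adult ventricle after rescaling. It lies at chr4:180061570-180080208 (rn4). Its level was 1202, 1019 and 830.2 FPKM in fetal replicates 1, 2 and 3. In sham it was 5409, 4689 and 7225 FPKM, and in TAC 5226, 6034 and 4473 FPKM. Every fetal value was below every adult value, and the adult groups overlapped. The sham mean of 5774 ± 1307 FPKM was 5.68-fold the fetal mean of 1017 ± 186 FPKM (SD, n = 3 each). The fetal minus sham difference was -2.50 ± 0.28 (SE, 95% interval -3.14 to -1.86, adjusted p = 0.000185). It was -2.17 for the libraries numbered 1 and -2.66 for numbers 2 and 3. In the deposited values without rescaling, where the median locus itself differed by 2.40, the Ldhb difference was 0.19, which is -2.21 relative to that median. Ldhb ranked between 14 and 21 of the 14211 loci in adult libraries and between 48 and 82 in fetal ones, and Ldha between 120 and 153 and between 74 and 95.

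Within a library the ratio of Ldha to Ldhb is free of the scaling. It was 0.718, 0.808 and 0.970 in fetal replicates 1, 2 and 3. In sham it was 0.156, 0.204 and 0.125, and in TAC 0.159, 0.166 and 0.186. The lowest fetal ratio lay above the highest adult one, and the sham ratios lay on both sides of the TAC ratios. As a share of both genes, Ldha was 45.2 ± 3.75% in fetal, 13.8 ± 2.95% in sham and 14.6 ± 1.02% in TAC libraries (SD, n = 3 each). The fetal ratio was 5.22-fold the sham ratio, a log2 difference of 2.38 (exact permutation test, two-sided, p = 0.1, adjusted p = 0.15 over 3 tests), and 3 libraries against 3 cannot give a p below 0.1. It was 4.86-fold the TAC ratio, a log2 difference of 2.28 (exact permutation p = 0.1, adjusted p = 0.15). The TAC and sham ratios differed by 0.10 on the log2 scale (exact permutation p = 0.7, adjusted p = 0.7). The summed level of both genes was 1848 ± 215 FPKM in fetal, 6675 ± 1293 in sham and 6133 ± 866 in TAC libraries, so the fetal libraries held less lactate dehydrogenase transcript in all as well as a larger share of Ldha. Within each library Ldhb was above Ldha. It was 1.39, 1.24 and 1.03 times Ldha in fetal replicates 1, 2 and 3, and between 4.90 and 8.02 times in adult libraries. Across the fetal libraries the ranges of both genes overlapped.

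**Figure D3:**
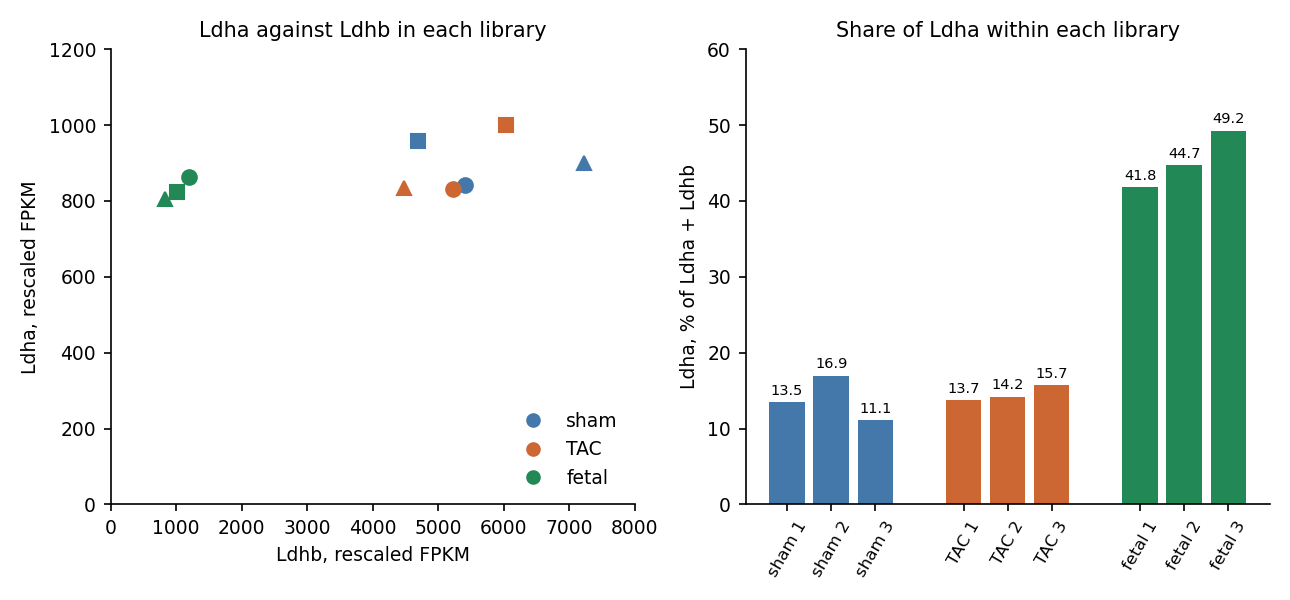
Left, rescaled FPKM of Ldha (vertical axis) against Ldhb (horizontal axis) in each library, with colours for the groups and a circle, square or triangle for replicate 1, 2 or 3; right, Ldha as % of the sum of Ldha and Ldhb in each library. Ldha spans 806 to 999.7 FPKM in all 9 libraries, and its share is 41.8% to 49.2% in fetal and 11.1% to 16.9% in adult libraries.

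Among the 4 genes, 3 passed the threshold of an adjusted p below 0.05 in fetal against sham ventricle, Slc2a1 and Slc16a3 upward and Ldhb downward. In that comparison 45.4% of all tested loci did so, 22.4% upward and 23% downward, so a count of 3 among 4 is to be read against a large background. The 3177 upward and 3273 downward calls became 3195 and 2496 with equal library totals, and 11885 and 291 in the values without rescaling. Pressure overload gave no such call. In TAC against sham 0 of the 4 genes passed limma's test, beside 0.0141% of all loci, 0.00704% upward and 0.00704% downward. The unadjusted p of the 4 genes lay between 0.227 and 0.888, and 612 loci had an unadjusted p below 0.05. The differences were 0.20 for Slc2a1 (95% interval -0.15 to 0.54), -0.02 for Ldha (-0.37 to 0.33) and -0.13 for Ldhb (-0.77 to 0.51). As ratios, the intervals allow TAC levels of 0.903 to 1.46 times sham for Slc2a1, 0.772 to 1.26 times for Ldha and 0.588 to 1.43 times for Ldhb.

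Slc16a3 differed by 0.11 between TAC and sham, with the widest interval, -1.40 to 1.63. Its TAC mean of 3.33 ± 4.88 FPKM was set by replicate 1, and without that library the difference was -0.80, with an SE of 0.25 in place of 0.66. It was 1.67 between the libraries numbered 1 and -0.66 for numbers 2 and 3, and -0.19 with a pseudocount of 0.1. The other TAC libraries held 2 and 7 fragments of Slc16a3. No difference under pressure overload was detectable within this spread, and the part of fragment depth in it was not tested.

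Fetal against TAC ventricle uses the same fetal libraries, so it is no second test of them. Again 3 of the 4 genes passed, beside 45.5% of all loci, 22.7% upward and 22.7% downward. With equal library totals, the 3229 loci called upward and 3232 called downward became 3590 and 2254, and without rescaling 12978 and 110. The Slc2a1 difference was 2.92 (adjusted p = 4.32e-06), a 7.88-fold ratio of means. Slc16a3 differed by 5.25 (adjusted p = 0.000359), 32.2-fold, with 3.39 for the libraries numbered 1 and 6.18 for numbers 2 and 3. Ldhb differed by -2.37 (adjusted p = 0.000249), the TAC mean being 5.16-fold the fetal mean. In the values without rescaling Ldhb differed by 1.76, or -1.67 relative to the median locus. The Ldha difference of -0.09 had an adjusted p of 0.663, and it was 0.14 with equal library totals.

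**Figure D4:**
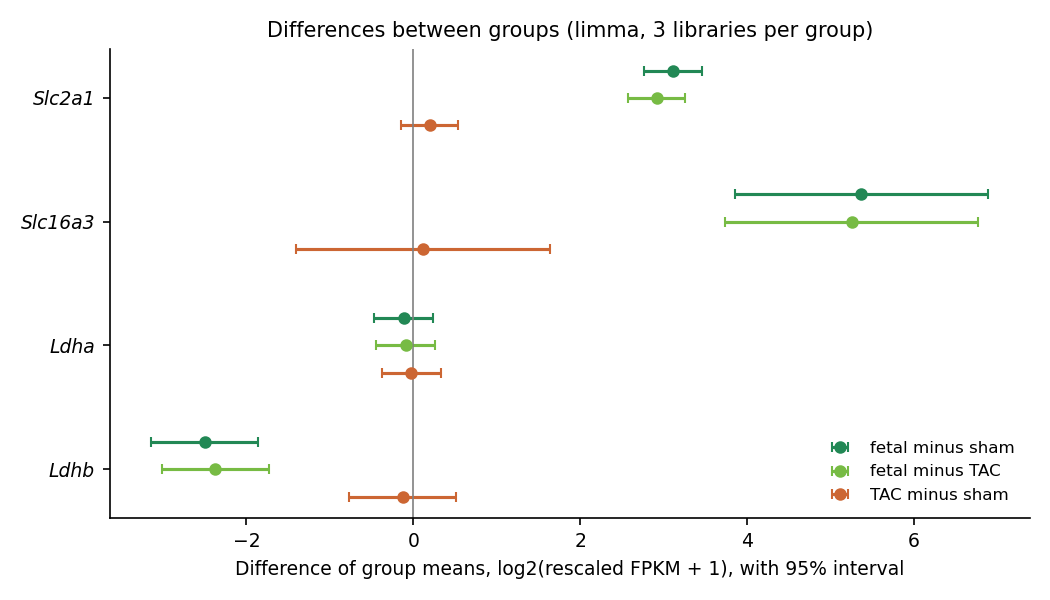
Differences between group means on the log2(rescaled FPKM + 1) scale (horizontal axis) for the 4 genes (vertical axis) and 3 comparisons; points are limma estimates and bars 95% intervals, with 3 libraries per group. Every TAC minus sham interval includes 0, and so do both fetal intervals of Ldha.

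The other genes of these pathways were read from lists of names, of which 57 genes beside the 4 were tested. In fetal against sham, 8 rose and 25 fell, which is 57.9% called beside 45.4% of all loci, and their median difference was -0.34 against 0.05 for all loci. In TAC against sham 0 of the 57 passed limma's test, with a median of -0.02, and 3 had an unadjusted p below 0.05 (Me2, Bnip3 and P4ha2, named after their values were seen). Genes without a symbol in the files, among them the insulin-responsive transporter Slc2a4, the MCT chaperone Bsg and the hexokinases Hk1 and Hk2, were not analysed here.

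Counts by list are to be read beside all loci, of which 22.4% rose and 23% fell in fetal against sham. For glucose transporters and monocarboxylate transport the counts are near the 45.4% called in all and are no result about the lists. Of the 5 glucose transporters tested, Slc2a1 was the 1 that rose and Slc2a12 the 1 that fell. Slc2a12 went from 8.47 ± 0.680 FPKM in sham to 2.83 ± 0.853 in fetal libraries (-1.33, adjusted p = 0.00225). Slc2a3, the neuronal-type transporter, was at 4.86 ± 1.12 FPKM in sham, 7.40 ± 1.06 in TAC and 7.75 ± 2.44 in fetal libraries (fetal minus sham 0.56, adjusted p = 0.101). The median of this list was 0.56. Of 7 genes of monocarboxylate transport, 3 rose and 1 fell, with a median of 0.53. Beside Slc16a3, these were Slc16a12, a creatine transporter, from 4.22 ± 0.864 to 45.2 ± 1.51 FPKM (3.16, adjusted p = 2.58e-05), and Emb, a chaperone of monocarboxylate transporters (0.57, adjusted p = 0.0497). Slc16a7, which encodes the high-affinity carrier MCT2, fell from 1.83 ± 0.431 to 0.545 ± 0.359 FPKM (-0.89, adjusted p = 0.0291). With assembled transcripts counted, the 2 transporters among the 4 genes had the largest fetal minus sham differences of their lists. With reference transcripts alone the Slc16a3 difference was 2.28. Genes and lists were chosen with earlier results of these data known, so this rank is a description only. Of the lactate dehydrogenase list only Ldha and Ldhb were tested, as the testis gene Ldhc was below the filter on low values.

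Of 10 genes of pyruvate entry and fate, 8 fell together with Ldhb and 2 rose (median -1.09). The list includes malic enzymes and regulators of pyruvate dehydrogenase. Of all loci, 23% fell and 22.4% rose. Brp44l and Brp44, the subunits Mpc1 and Mpc2 of the mitochondrial pyruvate carrier, went from 852 ± 152 to 186 ± 27.6 FPKM (-2.19, adjusted p = 3.95e-05) and from 531 ± 192 to 116 ± 22.8 FPKM (-2.15, adjusted p = 0.00137). Me1, the cytosolic malic enzyme, fell from 128 ± 13.3 to 9.76 ± 3.80 FPKM (-3.64). Pdp2, a phosphatase that activates pyruvate dehydrogenase, fell by 1.78, the enzyme's subunit gene Pdhb by 1.12, and the alanine transaminase gene Gpt2 by 1.05. Pdk3, a kinase that inhibits pyruvate dehydrogenase, rose from 3.49 ± 1.59 to 32.2 ± 6.01 FPKM (2.94, adjusted p = 0.000224), and Me2, a mitochondrial malic enzyme, rose by 1.85. All 5 tested genes of the shuttles that carry the reducing equivalents of cytosolic NADH into the mitochondrion fell (median -1.75). The largest of these differences was that of Gpd1, glycerol-3-phosphate dehydrogenase, from 129.9 ± 7.10 to 6.45 ± 0.964 FPKM (-4.14, adjusted p = 6.87e-07), and the others were Got1 (-1.78), Slc25a12 (named RGD1561141 in the files, -1.75), Got2 (-1.08) and Mdh2 (-1.04). Of 6 genes of transporter traffic and glucose sensing, Rab8a rose (0.87) and Mlx fell (-0.60). This count does not exceed the 45.4% of all loci called and is no result about the list.

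Of 18 other targets and regulators of the hypoxia pathway tested, 4 fell and 3 rose, beside 23% and 22.4% of all loci, with a median of -0.33. A count of this size is near that of all loci and is no result about the list. The 3 that rose, Hif3a (5.16), Arnt2 (1.18) and Car9 (1.65), passed the filter on low values only through the fetal libraries, so nothing is read from their count. Those that fell were Stc2 (-1.97), Adm (-1.77), Bhlhe40 (-1.41) and Egln3 (-1.30), the last an oxygen-sensing prolyl hydroxylase. Pgk1, a glycolytic target singled out after its values were seen, was at 629 ± 71.6 FPKM in sham and 637 ± 95.7 in fetal libraries (0.01, adjusted p = 0.960). Of 6 regulators of adult oxidative metabolism, 3 fell and 0 rose (median -0.80). Taken in either direction this count is near the 45.4% of all loci called, while 23% of all loci fell. With 6 genes the count is no result about the list. The genes lower in fetal libraries were the thyroid hormone receptor Thrb, from 33.1 ± 3.97 to 0.586 ± 0.0951 FPKM (-4.42), Esrra (-2.07) and Klf15 (-1.32).

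**Figure D5:**
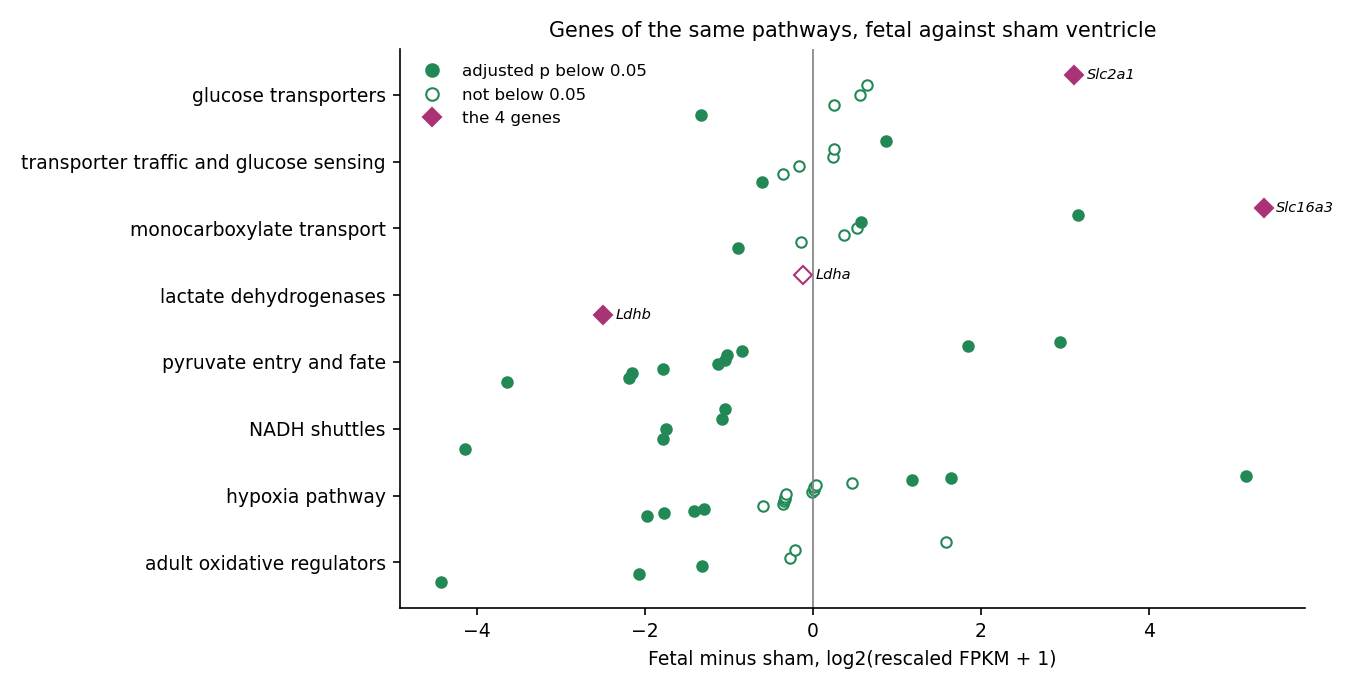
Fetal minus sham differences on the log2(rescaled FPKM + 1) scale (horizontal axis) of the tested genes of 8 pathway lists (vertical axis; the small vertical offsets within a list separate the points). Diamonds are the 4 genes and circles the others, filled where the adjusted p is below 0.05; all 5 shuttle genes lie below 0, as does Ldhb, and Slc16a3 lies farthest right.

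The pattern over the 9 libraries most like that of each gene was sought among 5372 named loci with a mean of at least 5 FPKM, as Pearson's r of log2(FPKM + 1). These r mostly reflect the step between fetal and adult libraries, which all such loci share, and are given as a description. For Slc2a1 the closest were Cdca2 (0.997), Kif26b (0.997), Usp11 (0.997), Ptrh2 (0.997) and Epb4.1l3 (0.996). For Slc16a3 they were Psrc1 (0.991), Sfrp1 (0.990), Trip13 (0.990), Mastl (0.990) and Ankfy1 (0.989). For Ldhb they were Orai3 (0.993), B2RYI1_RAT (0.992), Myom3 (0.992), Slc35f5 (0.991) and Ctsd (0.991), and among 50 pathway genes Thrb (0.988), Adm (0.987), Gpd1 (0.979), Me1 (0.972) and Got2 (0.969). Ldha, which had no such step, had lower values, with Map2k1 (0.886), Dynlrb1 (0.867), Heatr2 (0.866), Q4KM24_RAT (0.848) and Hmox1 (0.846) closest. Cdca2, Kif26b, Epb4.1l3, Psrc1, Trip13 and Mastl reached the mean of 5 FPKM only through the fetal libraries. Their means were 0.119 to 1.60 FPKM in sham and 0.191 to 1.57 in TAC, so nothing is read from their likeness to Slc2a1 or Slc16a3.

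Some markers of cell types and states differed in the fetal libraries, in which Slc2a1 and Slc16a3 were high and Ldhb low after rescaling. Counts of markers called are against sham, where 22.4% of all loci rose and 23% fell. All 8 cell cycle genes tested rose. Their summed level was 487 to 572 FPKM in fetal libraries, 23.3 to 31.9 in sham and 17.4 to 31.7 in TAC. Of 10 erythroid markers 5 rose and 1 fell. The filter was passed only through the fetal libraries by 5 of the 10, among them Hbe1, Hbg1, Epb4.2 and Klf1, which rose. Nothing is therefore read from the count of those that rose. The erythroid sum was 17400 to 27650 FPKM in fetal libraries, 5111 to 12750 in sham and 5044 to 10260 in TAC. Hba-a2, an alpha globin gene, carried most of that sum (16880, 27340 and 19000 FPKM in fetal replicates 1, 2 and 3), and its own fetal minus sham difference did not pass the threshold (adjusted p = 0.0979). The fetal globin gene Hbg1, among those passing only through the fetal libraries, was listed at 0 in all 6 adult libraries. Of 9 macrophage markers 8 fell (sum 63.6 to 71.2 FPKM in fetal, 290.3 to 537 in sham), and of 10 fibroblast markers 8 fell and 1 rose. Of 6 endothelial markers 3 fell and 0 rose, and of 6 epicardial markers 3 rose and 0 fell. Taken in either direction these counts are near the 45.4% of all loci called, and nothing is read from so few genes. Among heart muscle markers the actin gene Actc1 was between 14240 and 27540 FPKM in 8 libraries and stood apart at 137300 FPKM in fetal replicate 2, and Mb, which encodes myoglobin, was 21440 ± 3311 FPKM in sham and 1128 ± 428 in fetal libraries. The part of these cell types and states in the differences of the 4 genes was not tested.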

How the data were processed

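Values of 9 RNA libraries of rat ventricle were deposited with FPKM values and their confidence bounds per gene and per isoform. Per the submitters' processing notes, the authors used TopHat 1.3.1, Cufflinks 1.0.3 and a Cuffdiff of unstated version, on the rat build rn4. Per the labels' protocols the libraries were made with the Illumina TruSeq kit. The deposited FPKM values carry a further constant in each library: the median of values above 0 ran from 2310000 to 72100000, so they were rescaled before libraries were compared.

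Each library had been assembled separately, so loci were joined through reference transcripts that shared a gene in at least 5 libraries, and transcripts assembled with them were added. The sum of isoforms matched the gene value within 1% in at least 99.97% of genes of every library. Each library was divided by its median ratio over the 13179 loci above 0 throughout. A constant shared by all libraries then set the mean library total to 1e6. Of 25075 loci of at least 200 nt, the 14211 that reached 1 rescaled FPKM in 3 or more libraries entered the test as log2(value + 1), a scale that shrinks the fold of low genes. One limma 3.58.1 model in R 4.3.3 (lmFit, eBayes with a trend) held all 9 libraries, with Benjamini-Hochberg adjustment over all loci and a threshold of 0.05. The script was tested on simulated data. Fragments were estimated as the square of 2 times FPKM over the distance to its upper bound. File starts, which count from 0, were moved by 1 base.

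After removal of group means, same-number libraries correlated in every pair of groups, at 0.47 to 0.51 for number 1, 0.22 to 0.27 for number 2 and 0.15 to 0.17 for number 3. Number 2 of one group with number 3 of another gave 0.12 to 0.28, and number 1 with 2 or 3 gave -0.41 to -0.20. Deviations from a group mean cancel within the group, so these correlations depend on each other. The negative values follow from the positive ones and are no separate observation. The number was tried as a block. The other alternatives were other pseudocounts, filters, scalings, samples, variance models and transcripts, and leaving out each library. The 4 genes and the lists were chosen with earlier results of these data known. Named are the 4 genes, the genes of each pathway list called in fetal or TAC against sham (at most the 6 largest per direction), listed partners of the 4, and the 5 most alike loci of each. Symbols come from the files; Slc25a12 and other older names were matched through the RefSeq table of GRCr8, and loci without a symbol were not analysed here. The values of 1 short pathway list are not reported here, though its genes are in the counts over the 57.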

Additional observations from a re-analysis of the deposited data

How the results depend on the processing

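The calls of Slc2a1 and Ldhb in fetal against sham and fetal against TAC, and those of Slc16a3, held under other pseudocounts, filters, variance models and samples, with equal library totals and with every library left out in turn; the exceptions follow. With reference transcripts alone, Slc16a3 differed by 2.28 from sham (adjusted p = 0.413) and 2.22 from TAC (adjusted p = 0.422), and 2059, 41 and 2135 loci were called in fetal against sham, TAC against sham and fetal against TAC; Ldha differed by 0.19 and 0.47 from sham and TAC, and the log2 Ldha to Ldhb ratio of fetal against TAC was 2.51. FPKM as deposited called 12176, 4 and 13088 loci; the fetal differences from sham and TAC were 2.57 (adjusted p = 0.00024) and 4.03 (2.48e-06) for Ldha and 0.19 (0.751) and 1.76 (0.00703) for Ldhb, and TAC minus sham was -0.99 for Slc2a1 and -0.27 for Slc16a3. In these values the median locus differed by 2.40 between fetal and sham, 3.43 between fetal and TAC and -1.05 between TAC and sham; with equal library totals it differed by 0.18, 0.24 and -0.08, and Ldha by 0.038 and 0.14 from sham and TAC. Replicates 2 and 3 alone called 10 loci in TAC against sham, where Slc16a3 differed by -0.66, and by -0.19 with a pseudocount of 0.1. Over all alternatives, leave-outs included, the adjusted p in fetal against sham ran from 2.97e-07 to 0.000385 for Slc2a1, 7.2e-08 to 0.413 for Slc16a3 6.82e-05 to 0.751 for Ldhb and 0.00024 to 0.909 for Ldha, and for Slc16a3 in fetal against TAC from 4.16e-08 to 0.422. The cause of these shifts was not tested, other than that reference transcripts alone leave out the assembled ones.

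With the replicate number as a block, no call of the 4 genes changed: the adjusted p in fetal against sham was 2.56e-05 for Slc2a1, 0.000378 for Slc16a3 and 0.000567 for Ldhb, and 6704, 2 and 6758 loci were called.

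With each library left out in turn, the fetal minus sham difference ran from 3.06 to 3.22 for Slc2a1, 5.16 to 5.50 for Slc16a3, -0.16 to -0.07 for Ldha and -2.64 to -2.32 for Ldhb. Fetal minus TAC ran from 2.84 to 3.0, 4.73 to 6.16, -0.14 to -0.0046 and -2.50 to -2.23, and TAC minus sham from 0.11 to 0.30, -0.80 to 0.64, -0.11 to 0.023 and -0.26 to 0.048, in the same order. The log2 Ldha to Ldhb ratio ran from 2.21 to 2.57, 2.16 to 2.38 and -0.07 to 0.29 in fetal against sham, fetal against TAC and TAC against sham, and the loci called from 4979 to 6649, 4969 to 6371 and 2 to 5. In adult libraries 2 to 37 fragments carried Slc16a3, and how far this limits its differences was not tested.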
